A study of Mus musculus with 6 samples.

Results

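The genes of histone lysine methyltransferases and demethylases were examined in mouse bone marrow cells labelled as haematopoietic stem progenitor cells. Members were chosen by gene symbol alone: the Kmt, Setd, Nsd, Ehmt and Suv39h genes as writers of lysine methylation and the Kdm genes as erasers, with a summed count of at least 60 over the 6 libraries. Of 18491 genes in the deposited table, 39 met the rule, 23 writers and 16 erasers. Every matching symbol in the table passed, the lowest summed count being 305, and all 39 were among the 15474 genes tested. Kdm4d and Kdm5d were not analysed here.

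RNA was sequenced from 3 wild-type and 3 knockout libraries. The series describes deletion of Robo1, a receptor for Slit guidance proteins, by Mx1-cre. This recombinase is driven by an interferon-responsive promoter and is switched on by poly(I:C), a mimic of viral double-stranded RNA that was given in 3 doses. It acts in blood cells and also in other interferon-responsive tissues. The labels place sorting 8 months after poly(I:C) for both groups. Whether the wild-type animals carried Mx1-cre or a floxed allele, and the age and sex of the animals, are not given in the sources used here. The labels do not agree among themselves. The wild-type libraries have the genotype WT and the treatment scramble shRNA control, and the knockout libraries have the genotype ROBO1 knockdown, with ROBO1, ROBO2 and ROBO3 knockdown in turn as treatment. Groups follow the descriptions, WT and KO. Robo1 itself was not analysed here, so the targeted gene does not check the labels. Nothing says that the libraries came from separate animals, so each p-value covers no more than the variation among these 6 libraries, part of which may be technical.

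Methyl groups on lysines of histones H3 and H4 are added by enzymes that mostly share a SET domain and are removed by 2 enzyme classes, the flavin-dependent Kdm1 enzymes and the Jumonji enzymes. Methylation of H3 lysine 4 (H3K4) marks promoters and enhancers, that of H3K36 marks transcribed gene bodies, and that of H3K9, H3K27 and H4K20 is found at silent chromatin. In blood formation Kmt2a is known for keeping stem cells and Hox gene expression, Kdm1a works with the repressors Gfi1 and Gfi1b, and Kmt2a, Kmt2d, Setd2 and Kdm6a are recurrently altered in human blood cancers.

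Total counts ran from 42235077 to 58106099 per library. The 100 most abundant genes took 42.3 to 43.3% of counts in wild type and 59.7 to 60.8% in knockout. The members together took 0.0959 to 0.106% of counts in wild type and 0.0375 to 0.0394% in knockout. Levels below are CPM, counts scaled to a common library size, on TMM-scaled library sizes, a scaling that sets the bulk of genes level between libraries, and direction depends on that choice as described further down. All 9 stem and progenitor markers were detected, with a summed level of 169 to 175 CPM in wild type and 172 to 180 CPM in knockout. Among these, Ly6a rose and Meis1 and Hlf fell in edgeR's test. For neutrophils and granulocyte progenitors 7 markers summed to 82800 to 92900 CPM in wild type and 257000 to 273000 CPM in knockout, and 4 eosinophil and basophil markers to 5390 to 6560 and 40300 to 46000 CPM. For B and plasma cells 6 markers summed to 612 to 683 and 935 to 1130 CPM, for erythroid cells 4 markers to 206 to 272 and 678 to 855 CPM, and for monocytes and macrophages 3 markers to 78.9 to 82.3 and 55.2 to 59.6 CPM. Jchain made up most of the B and plasma sum, at means of 641 and 992.5 CPM. In that list 1 gene was called higher and 2 lower, Cd79a (log2 -0.48) and Ebf1 (-1.80). Hbb-bs made up most of the erythroid sum, at means of 192 and 736 CPM. There 1 gene was called higher and 1 lower, Klf1 (log2 -0.47). The T and NK markers measured, 3 in all, summed to 10.5 to 12.4 and 4.99 to 6.82 CPM, and 2 markers of stroma and endothelium to 12 to 13.7 and 9.61 to 12.9 CPM. Ms4a1 and Cxcl12 were at 0 in at least 1 library. The part of these shifts in the results below was not tested. In such bulk samples fewer cells of a type and less RNA per cell cannot be told apart.

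With TMM scaling 35 of the 39 genes were not called, and the 4 that were called are writers. The MLL family genes Kmt2d, Kmt2e and Kmt2a fell in knockout and the H4K20 methyltransferase gene Kmt5c rose, while no eraser passed. In edgeR's quasi-likelihood test 4 of 39 members were called at an adjusted p under 0.05, or 10.3%, against 31.7% of all genes tested. Higher in knockout was 1 member, against 17.2% of all genes, and lower were 3, against 14.4%. Of the 23 writers 17.4% were called. Of the 16 erasers 0 were called by edgeR and 0 by DESeq2. In edgeR 2 of them (12.5%) were at an unadjusted p under 0.05, against 40.7% of all genes tested. No member reached a 2-fold difference with TMM scaling, a size that 19.2% of all genes tested reached. The ranges of the groups did not overlap in 15 of 39 members, against 46.6% of all genes tested, and 11 of these 15 were not called. The median log2 fold change was -0.19 in writers and 0.12 in erasers, beside -0.09 over all genes tested. Below 0 lay 16 of 23 writers (69.6%) and 6 of 16 erasers (37.5%), against 56.1% of all genes tested. Over all 39 members the share was 56.4%.

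**Figure D1:**
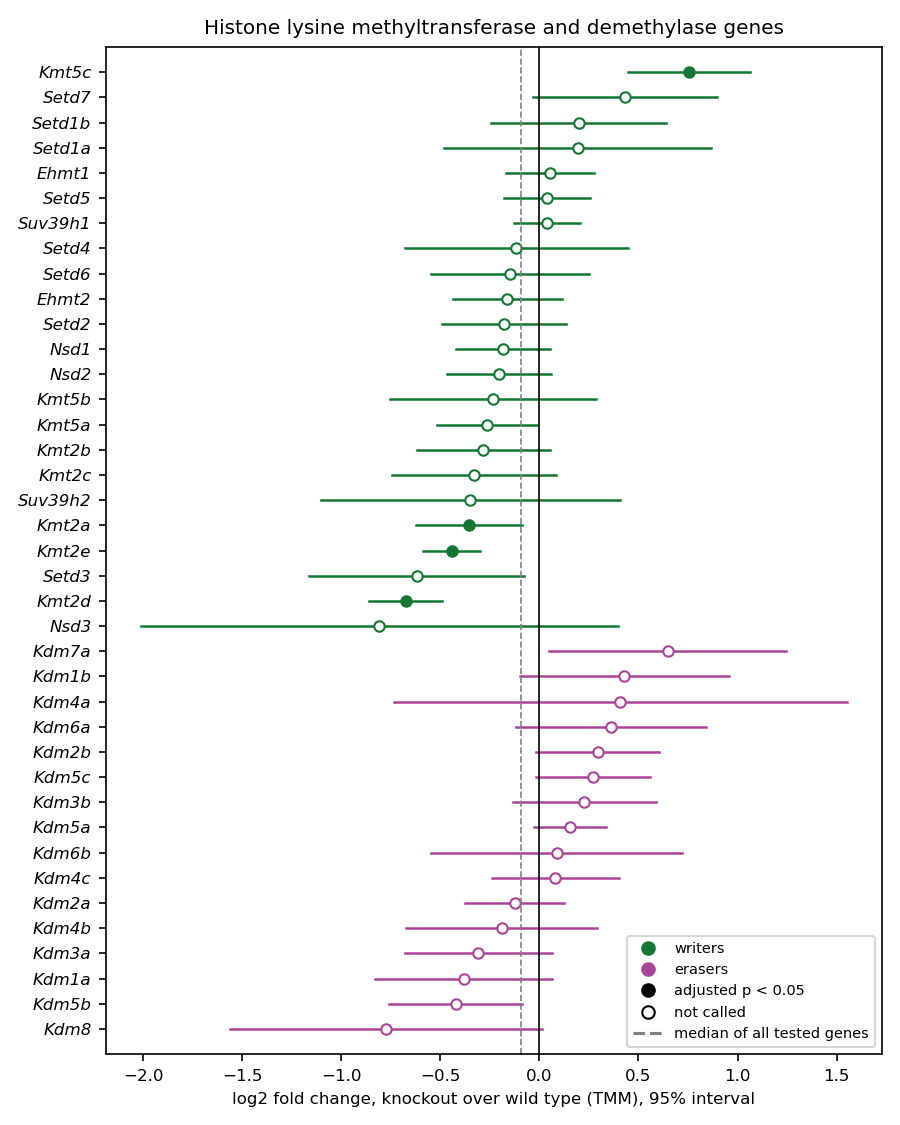
Log2 fold change of each of the 39 members, knockout over wild type with TMM scaling (x axis, with 95% interval), writers above and erasers below, filled where called. Kmt5c stands highest at 0.76, Kmt2d, Kmt2e and Kmt2a are the filled points below 0, and the interval of Nsd3 runs from -2.01 to 0.39.

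For 29 of the 35 members not called the 95% interval of the fold change lay within 2-fold in both directions. The remaining 6 were Setd3, Kdm8, Nsd3, Suv39h2, Kdm7a and Kdm4a. The median standard error was 0.16 on the log2 scale among members and 0.21 over all genes tested.

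The KMT2 or MLL family comprises very large H3K4 methyltransferases that work in COMPASS-type complexes. All 5 family members measured had a fold change below 0 with TMM scaling, from -0.67 to -0.28 on the log2 scale, and 3 of them were called. After a correction for exon length and GC content, described further down, Kmt2d alone of the 5 was called, at -0.45. The calls of Kmt2e (-0.11, adjusted p = 0.234 in edgeR) and Kmt2a (-0.07, adjusted p = 0.682) were lost, and Kmt2b and Kmt2c stood at -0.04 and -0.03. Kmt2d, which methylates H3K4 mainly at enhancers, stood at 103, 109 and 98.7 CPM in the wild-type libraries and at 68.1, 67.5 and 58.8 CPM in the knockout libraries. The groups did not overlap, and the change was -0.67 on the log2 scale (SE 0.08, adjusted p = 0.000203 in edgeR's quasi-likelihood test), or 0.627 times the wild-type level. Kmt2e, an MLL relative with a divergent SET domain and no settled methyltransferase activity, stood at 141, 151 and 142 CPM in wild type and at 104, 104 and 111 CPM in knockout. Here too every knockout library lay below every wild-type library, at 0.735 times the wild-type level (log2 -0.44, SE 0.06, adjusted p = 0.00064 in edgeR). Kmt2e shares 9.31% of its exon bases with Srpk2. Kmt2a, the founding MLL gene, stood at 13.5, 15.6 and 16.2 CPM in wild type and at 12.5, 12.6 and 10.4 CPM in knockout. The highest knockout library was close under the lowest wild-type library, and Kmt2a passed narrowly (log2 -0.35, SE 0.12, adjusted p = 0.0488 in edgeR). Kmt2a was not called without wild-type replicate 2 (adjusted p = 0.148) or 3 (0.183), nor without knockout replicate 1 (0.0719), 2 (0.071) or 3 (0.127). It was also not called with DESeq2's size factors (adjusted p = 0.0588) or in the DESeq2 test (0.0656). Kmt2b, which acts at CpG-rich promoters, averaged 7.92 ± 1.03 CPM (SD, n = 3) in wild type and 6.52 ± 0.709 CPM (SD, n = 3) in knockout. Kmt2c, the relative of Kmt2d that also acts at enhancers, averaged 7.78 ± 1.12 and 6.17 ± 1.33 CPM. Neither was called, and in both the groups overlapped. The authors' deposited table gives Kmt2d a value of -0.67 on the log2 scale (adjusted p = 2.12e-12), Kmt2e -0.44 (9.8e-08), Kmt5c 0.76 (3.87e-06) and Kmt2a -0.35 (0.0862). In the authors' deposited table an adjusted p under 0.05 stands beside 3 of the 39, and all 39 are classed as stable.

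**Figure D2:**
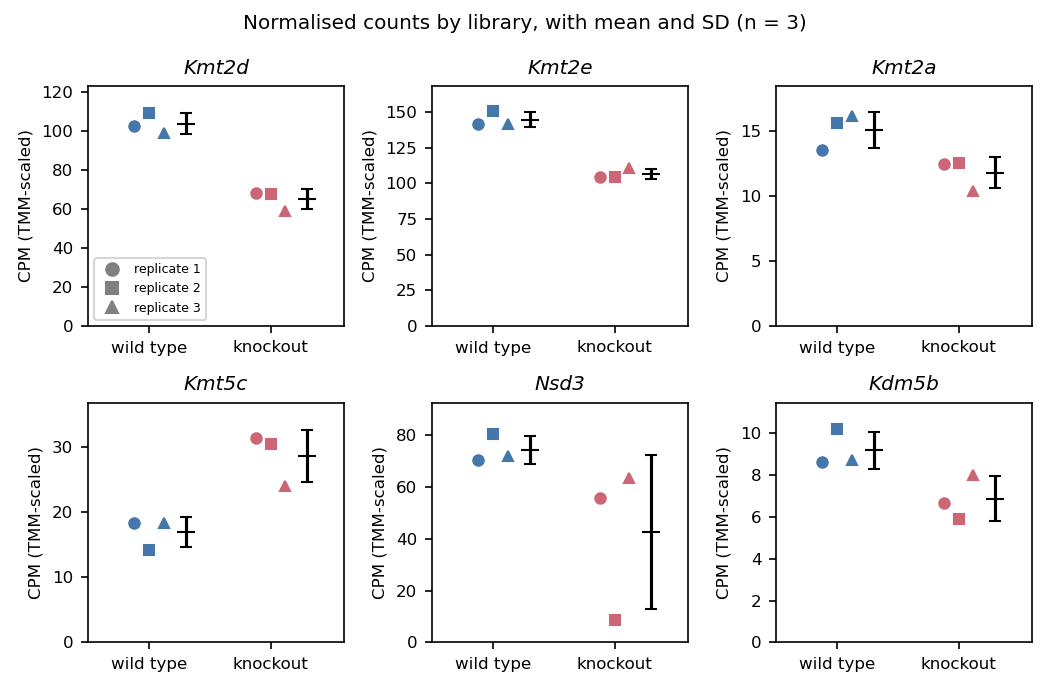
TMM-scaled CPM in each library (points, shaped by replicate number) with mean and SD (n = 3) for 6 members, y axes from 0. Kmt2d, Kmt2e, Kmt2a, Nsd3 and Kdm5b lie lower and Kmt5c higher in all 3 knockout libraries, and Nsd3 drops furthest in knockout replicate 2, to 8.51 CPM.

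Kmt2d lies on chromosome 15 (98831669 to 98871204, minus strand), Kmt2e on chromosome 5 (23434441 to 23504235, plus), Kmt2a on chromosome 9 (44803355 to 44881296, minus) and Kmt5c on chromosome 7 (4740115 to 4747514, plus), all protein-coding genes by GENCODE on GRCm38. The 250 bases upstream of the RefSeq start (GRCm38.p6) are printed for the called members with an entry, to set the pair that fell beside the gene that rose. They run from chr9:44881290-44881539 (minus strand) for Kmt2a, chr15:98871206-98871455 (minus) for Kmt2d and chr7:4739877-4740126 (plus) for Kmt5c. Capitals mark the GC box letters GGGCGG and the CCAAT box letters CCAAT, read on both strands.

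Kmt2a: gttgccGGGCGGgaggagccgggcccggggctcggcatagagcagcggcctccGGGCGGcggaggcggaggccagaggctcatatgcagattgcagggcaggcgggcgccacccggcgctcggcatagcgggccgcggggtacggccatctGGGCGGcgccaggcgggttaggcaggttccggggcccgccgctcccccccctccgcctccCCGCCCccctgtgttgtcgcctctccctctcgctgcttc

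Kmt2d: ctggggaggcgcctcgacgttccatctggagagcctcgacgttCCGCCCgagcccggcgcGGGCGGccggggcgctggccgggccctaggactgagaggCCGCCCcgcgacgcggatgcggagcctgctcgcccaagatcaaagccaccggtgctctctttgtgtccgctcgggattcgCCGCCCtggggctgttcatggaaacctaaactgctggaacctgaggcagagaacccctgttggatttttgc

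Kmt5c: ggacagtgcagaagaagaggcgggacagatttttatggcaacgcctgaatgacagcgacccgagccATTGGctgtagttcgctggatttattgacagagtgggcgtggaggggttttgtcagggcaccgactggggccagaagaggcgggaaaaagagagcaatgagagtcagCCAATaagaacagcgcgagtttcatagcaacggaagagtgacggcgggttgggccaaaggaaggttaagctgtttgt

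The Kmt2a window held 4 GC box matches and 29 CpG, the Kmt2d window 4 and 26, and the Kmt5c window 0 GC box and 2 CCAAT matches with 13 CpG. Over 32851 such windows of all genes the median was 6 CpG, 32.7% held the GC box letters and 33.8% the CCAAT letters. These are descriptions of letters in a window, and the data hold no measurement of binding there.

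The KMT5 enzymes act on H4K20, where Kmt5a adds the first methyl group and Kmt5b and Kmt5c add the further ones, Kmt5c mainly at pericentromeric heterochromatin. Kmt5c stood at 18.3, 14.2 and 18.2 CPM in wild type and at 31.3, 30.3 and 23.99 CPM in knockout. All knockout libraries were above all wild-type libraries, by 1.69-fold (log2 0.76, SE 0.14, adjusted p = 0.00255 in edgeR), though with total counts as the only scaling it was called lower, at -0.38. Kmt5a was at 9.15, 8.78 and 8.60 CPM in wild type and 7.30, 7.29 and 7.52 CPM in knockout. These groups did not overlap, but the difference was not called (log2 -0.26, SE 0.11, adjusted p = 0.11). Kmt5b was at 4.40 ± 0.332 and 3.72 ± 1.11 CPM (n = 3 each) and was not called.

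The writers of H3K36 methylation are Nsd1, Nsd2 and Nsd3, which make the mono- and dimethyl forms, and Setd2, which makes the trimethyl form. None of the 4 was called in edgeR. Nsd3 (chromosome 8, 25601601 to 25719667, plus strand) had the widest interval of these. It stood at 70.4, 80.5 and 71.7 CPM in wild type and at 55.6, 8.51 and 63.3 CPM in knockout. All 3 knockout libraries lay below every wild-type library. Knockout replicate 2, with 301 counts, was 6.54-fold below the lower of the other knockout libraries. With all libraries the change was -0.81 (SE 0.53, adjusted p = 0.296), and without knockout replicate 2 it was -0.32 (SE 0.10, adjusted p = 0.0553). Such a drop was uncommon: among 5420 genes with a mean of at least 10 CPM, 4 stood in knockout replicate 2 at less than 0.25 times either other library of the group, and 0 to 3 did so in each other library. Nsd1 averaged 37.2 ± 2.76 CPM in wild type against 32.7 ± 3.84 in knockout, Nsd2 15.1 ± 1.501 against 13.1 ± 1.18, and Setd2 9.25 ± 0.872 against 8.18 ± 1.05 (SD, n = 3 per group). In these 3 genes the groups overlapped.

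Suv39h1, which trimethylates H3K9 in heterochromatin, was at 47.9, 48.4 and 47.7 CPM in wild type and 46.4, 51.4 and 50.0 CPM in knockout, a log2 fold change of 0.04 with a 95% interval of -0.13 to 0.20. Ehmt1 and Ehmt2 form the G9a-GLP complex that makes dimethyl H3K9. Ehmt1 averaged 31.1 ± 1.80 CPM in wild type against 32.3 ± 3.34 in knockout, and Ehmt2 18.3 ± 1.76 against 16.4 ± 2.08 (SD, n = 3 per group). Suv39h2, a paralogue of Suv39h1, stood at 1.38 ± 0.364 and 1.08 ± 0.195 CPM. None of the 4 was called, and in each the groups overlapped. Suv39h1 shares 14.6% of its exon bases with the annotated gene Gm14820, and the strand setting of the counting is not stated in the labels or headers.

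The SETD genes are mixed in function, and 0 of 8 were called in edgeR, 4 lying above and 4 below 0. Setd1a and Setd1b, which deposit most H3K4 trimethylation at promoters, averaged 2.61 ± 0.453 and 2.84 ± 0.460 CPM in wild type against 2.97 ± 1.25 and 3.26 ± 0.203 CPM in knockout (SD, n = 3 per group). Of the exon bases of Setd1a 52.3% are shared with the annotated genes 9430064I24Rik and Gm49388, so its value is uncertain. Setd7, a monomethyltransferase of H3K4 and of other proteins, was at 2.36, 3.33 and 3.65 CPM in wild type and at 4.62, 3.87 and 4.14 CPM in knockout. Its groups did not overlap, yet it was not called (log2 0.43, SE 0.21, adjusted p = 0.148). Setd3, which methylates a histidine of actin rather than a histone, was at 5.20, 7.24 and 5.03 CPM in wild type and 4.78, 2.66 and 3.94 in knockout and was not called (log2 -0.62, SE 0.24, adjusted p = 0.0816). Setd4, Setd5 and Setd6 had fold changes between -0.15 and 0.04 on the log2 scale. Setd6 is known to methylate the NF-kB subunit RelA.

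Among erasers of H3K4 methylation the 3 KDM5 genes measured went different ways with TMM scaling, and none was called in edgeR. Kdm5b was at 8.62, 10.2 and 8.70 CPM in wild type and 6.67, 5.91 and 8.01 CPM in knockout, the groups not overlapping (log2 -0.42, SE 0.15, adjusted p = 0.059). It was called lower without knockout replicate 3, but stood at -0.09 after the length and GC correction (adjusted p = 0.705 in edgeR). Kdm5a was at 19.3, 20.2 and 19.3 CPM in wild type and 22.0, 21.6 and 21.7 CPM in knockout, again without overlap, the difference being 0.15 on the log2 scale (SE 0.08, adjusted p = 0.184). Kdm5c, which is X-linked and escapes X inactivation, was at 11.6, 10.1 and 9.82 CPM in wild type and 14.5, 11.5 and 11.9 CPM in knockout, with overlapping groups (log2 0.27, SE 0.13, adjusted p = 0.146). With total counts Kdm5c was called lower, at -0.86. Kdm1a, the flavin-dependent LSD1, was at 4.45 ± 0.747 and 3.41 ± 0.564 CPM and its paralogue Kdm1b at 1.57 ± 0.152 and 2.12 ± 0.203 CPM (n = 3 each). These 2 lay on opposite sides of 0, at -0.38 and 0.43 on the log2 scale, and neither was called.

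The H3K27 demethylase genes are Kdm6a, also X-linked and escaping inactivation, and Kdm6b, which is inducible in inflammation. Kdm6a was at 3.22, 4.15 and 4.41 CPM in wild type and 5.95, 3.79 and 5.43 CPM in knockout (log2 0.36, SE 0.21, adjusted p = 0.237 in edgeR), and with total counts it was called lower, at -0.78. Kdm6b varied widely within both groups, from 2.64 to 5.19 CPM in wild type and from 2.94 to 4.80 CPM in knockout. The groups overlapped for both genes. Xist, the RNA of the inactive X chromosome, was detected in all 6 libraries, at 59.7 to 76.4 CPM in wild type and 77.1 to 85.9 CPM in knockout, and was not called.

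Erasers of H3K9 and H3K36 methylation were likewise not called in edgeR. Kdm2a and Kdm2b, H3K36 demethylases that bind unmethylated CpG, averaged 16.7 ± 0.851 and 7.08 ± 0.948 CPM in wild type against 15.3 ± 1.83 and 8.70 ± 0.492 CPM in knockout (SD, n = 3 per group). Kdm3a and Kdm3b, which remove H3K9 methylation, lay at -0.31 and 0.23 on the log2 scale, and Kdm3b shares 24.6% of its exon bases with the annotated gene Gm26538. The 3 KDM4 genes measured, which act on both marks, lay between -0.19 and 0.41, and Kdm4a, at 0.809 ± 0.320 and 1.07 ± 0.655 CPM, had a 95% interval of -0.73 to 1.55. Kdm7a, which acts on H3K9 and H3K27, was at 1.30, 1.31 and 1.55 CPM in wild type and 2.05, 2.71 and 1.74 CPM in knockout, without overlap (log2 0.65, SE 0.26, adjusted p = 0.0963). Kdm8, whose substrate is not settled, was at 1.70, 1.23 and 1.25 CPM in wild type and 0.611, 0.763 and 1.08 CPM in knockout, also without overlap (log2 -0.78, SE 0.35, adjusted p = 0.129). These 2 had the largest fold changes among erasers and both rested on few reads, with summed counts of 547 and 399.

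A ratio formed inside a library does not depend on how libraries are scaled. The summed CPM of the 23 writers over that of the 16 erasers was 5.77, 6.02 and 5.96 in wild type against 4.57, 4.55 and 4.69 in knockout, so that the groups did not overlap. This sum is dominated by a few genes: Kmt2e, Kmt2d and Nsd3 made up 55.1% of writer CPM in wild type. Without these 3 the ratio was 2.66 ± 0.108 in wild type against 2.52 ± 0.172 in knockout (SD, n = 3 per group) and the libraries overlapped. With each gene's CPM first divided by its kb of annotated exon, the ratio of all members was 5.40 ± 0.152 and 4.71 ± 0.0692. Without the 3 genes it was then 3.23 ± 0.1375 in wild type and 3.27 ± 0.2045 in knockout, so the direction of that remainder depended on the unit. As sums over members, these ratios are a description and were not tested.

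The ratio was then formed by mark. The summed CPM of 7 H3K4 writers over 5 H3K4 erasers was 3.12, 3.21 and 3.14 in wild type against 2.19, 2.25 and 1.96 in knockout, again without overlap. Writers summed to 143 ± 3.81 CPM in wild type and 99.8 ± 7.86 in knockout, and erasers to 45.3 ± 0.575 and 46.8 ± 2.22 (n = 3 each). Kmt2d alone held 72.4% of the wild-type writer sum, and 5.19 of 8.215 CPM per kb when each gene was divided by its exon length. Without Kmt2d the ratio of summed CPM was 0.870 ± 0.0599 in wild type and 0.745 ± 0.0495 in knockout, still without overlap between the groups. For H3K9 the ratio of 4 writers to 5 erasers, the KDM4 genes included and Kdm7a left out, was 5.15 ± 0.261 and 5.09 ± 0.244. The groups overlapped. For H3K36 the erasers were Kdm2a and Kdm2b only, the KDM4 genes being counted under H3K9 alone. The ratio of 4 writers to these 2 erasers was 5.56, 5.83 and 5.70 in the wild-type libraries. It was 4.04, 2.77 and 5.30 in the knockout libraries, also without overlap. Without Nsd3 the H3K36 ratio was 2.58 ± 0.126 and 2.26 ± 0.342, with overlap.

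**Figure D3:**
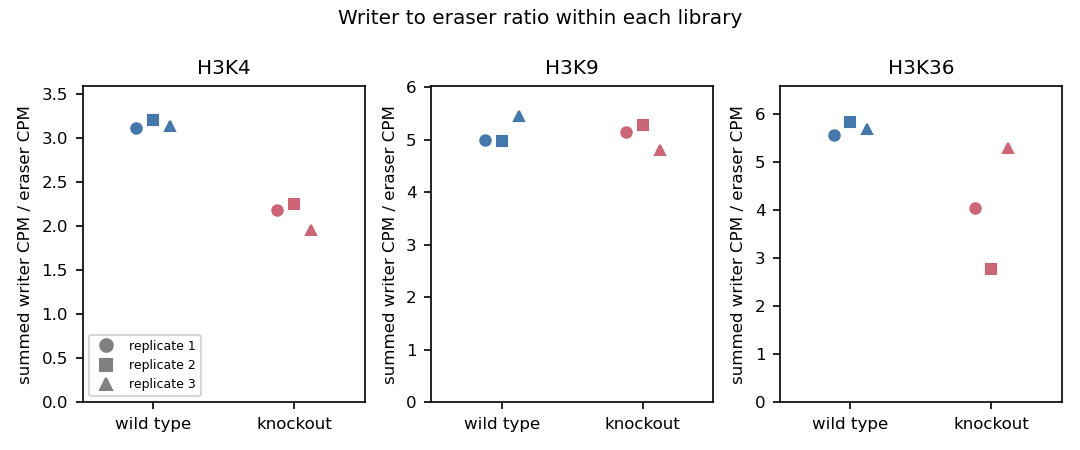
Summed CPM of writers divided by that of erasers in each library (points, shaped by replicate number) for H3K4, H3K9 and H3K36, y axes from 0. The H3K4 ratios of the knockout libraries, 1.96 to 2.25, lie below the wild-type ratios of 3.12 to 3.21, whereas the H3K9 ratios overlap and the H3K36 ratio is lowest in knockout replicate 2.

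Directions against the rest of the transcriptome depended on the scaling. With total counts alone the median log2 fold change of all genes moved to -1.22. All 39 members then lay below 0, from -1.95 to -0.38, with 37 called lower and 0 higher, where 70.7% of all genes tested were called lower and 4.23% higher. Only Kdm4a and Kdm7a were not called. The member transcripts are long, with a median of 8.38 kb of annotated exon against 3.55 kb over all genes tested, and the largest, Kmt2c, has 20.3 kb. When a smooth trend with exon length and GC content was removed from each library after TMM, 20.8% of all genes were called higher and 8.66% lower. Of the members 10 were then called higher, namely Kmt5c, Setd5, Setd7, Suv39h1, Kdm2b, Kdm3b, Kdm5a, Kdm5c, Kdm6a and Kdm7a, and 1 lower, Kmt2d. Kmt2d was the member called lower under all 3 scalings (log2 -0.67, -0.45 and -1.81). The erasers' median lay above that of the writers, at 0.12 against -0.19 with TMM and 0.40 against 0.04 after the correction. With total counts it was -1.01 against -1.32, but that scaling shifts all genes nearly alike and could hardly change the order.

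**Figure D4:**
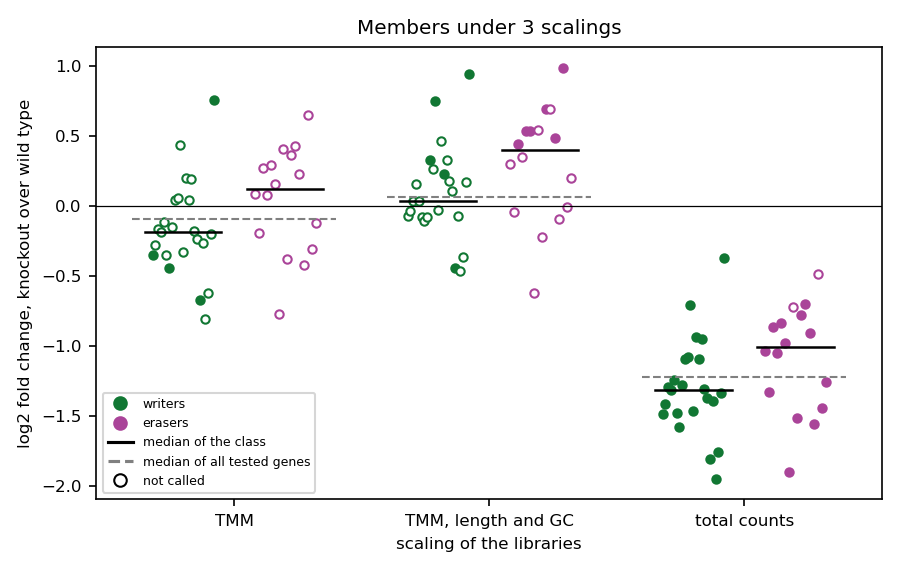
Log2 fold change of the members, knockout over wild type, under TMM, under TMM with the exon length and GC correction, and under total counts, writers left and erasers right in each column, filled where called. Black bars are class medians and dashed lines the median of all tested genes, which moves to -1.22 with total counts, where all 39 members lie below 0.

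Levels of different genes were compared as CPM per kb of annotated exon. Kmt2e was the most abundant member in wild type, at 13.9 ± 0.492 CPM per kb, followed by Suv39h1 at 9.10 ± 0.0669, Kmt2d at 5.19 ± 0.267, Nsd3 at 4.49 ± 0.333 and Kmt5c at 4.22 ± 0.588 (n = 3 each). Among these, Kmt2e and Suv39h1 stood clear of their neighbours, while Nsd3 and Kmt5c lay within their spread of each other. The most abundant eraser per length was Kdm5c, at 1.48 ± 0.132 CPM per kb, in 11th place, followed by Kdm5a at 1.38 ± 0.0390, within the spread of Kdm5c. By the deposited FPKM this order turned, with Kdm5a in place 6 and Kdm5c in place 14 of the 39, and Kmt2d moved from place 3 to place 10. The lowest were Kdm4a at 0.140 ± 0.0553 and Kdm7a at 0.138 ± 0.0141. In knockout Kmt2e (10.2 ± 0.356) and Suv39h1 (9.35 ± 0.489) stayed at the top by CPM per kb, and Kmt5c (7.13 ± 0.990) came next. By the deposited FPKM this order did not hold in every knockout library. Kmt2e stood at 7.92, 23.15 and 8.70 FPKM there, Suv39h1 at 8.40, 10.07 and 9.55, and Nsd3 at 9.35, 1.51 and 9.80.

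The deposited length-scaled values gave another picture for some members, because the transcript length they imply differed between libraries. That length follows from each library's count, total and deposited value. For Kmt2e it was 2.61, 2.79 and 2.55 kb in the wild-type libraries but 7.28, 2.56 and 7.22 kb in the knockout libraries. The deposited Kmt2e values were accordingly 63.7, 68.6 and 69.8 FPKM in wild type and 7.92, 23.1 and 8.70 FPKM in knockout, a wider gap than in the counts. For Kdm6b the implied length ranged from 2.92 to 6.68 kb, with short and long values in both groups. For Kmt2d it was 19.8 kb and for Kmt2a 16.5 kb in every library. The implied length varied by over 1.5-fold between libraries for 13 of the 39 members and by less than 1.1-fold for 9. The counts do not resolve transcripts, so whether other isoforms were present was not tested.

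**Figure D5:**
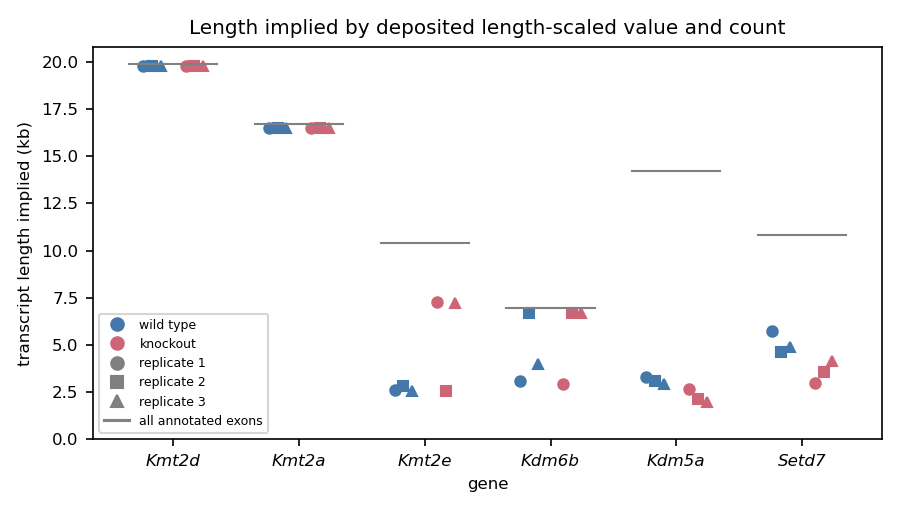
Transcript length in kb implied by count and deposited length-scaled value in each library (points, coloured by group, shaped by replicate number) for 6 members chosen after their values were seen, with the length of all annotated exons as a bar. Kmt2d and Kmt2a keep 1 length in all libraries, whereas Kmt2e is at 7.28 and 7.22 kb in knockout replicates 1 and 3 and at 2.55 to 2.79 kb elsewhere.

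Partners of these enzymes gave mixed directions with TMM scaling, whereas with total counts 0 genes of the 7 partner lists were called higher. Of 15 genes listed for COMPASS and MLL complexes 5 fell (33.3%, against 14.4% of all genes tested), 2 rose (13.3%, against 17.2%) and 8 were not called in edgeR. Their median log2 fold change was -0.28, beside -0.09 over all genes. The 5 include Bptf (log2 -0.38, adjusted p = 0.0131 in edgeR), a reader of H3K4 methylation rather than a subunit of these complexes. Ash2l, a core subunit of all these complexes, fell by 1.03 on the log2 scale (SE 0.16, adjusted p = 0.000907), from 9.96 ± 1.098 to 4.89 ± 0.777 CPM (n = 3 each). Men1, which encodes menin, the subunit that joins Kmt2a to chromatin, rose by 0.71 (SE 0.09, adjusted p = 0.000289 in edgeR), from 15.4 ± 0.541 to 25.2 ± 1.78 CPM, but lay at -0.42 with total counts. The large subunit gene Bod1l fell by 0.53 on the log2 scale (SE 0.10, adjusted p = 0.00382 in edgeR). Of 11 genes of Polycomb repressive complex 2, which methylates H3K27, 2 rose (18.2%) and 1 fell (9.09%). The histone chaperones Rbbp4 (log2 0.96) and Rbbp7 (0.50) rose, though they lay at -0.17 and -0.63 with total counts, and the core subunit Eed fell by 0.92 on the log2 scale. Among partners of Kdm1a, Hdac1 rose (log2 0.69, and -0.45 with total counts) and the repressor gene Gfi1 fell by 0.90 on the log2 scale. Of 9 subunits of the Kdm2b complex PRC1.1, 1 rose (11.1%) and 2 fell (22.2%). The gene that rose was Skp1a (log2 0.76, and -0.37 with total counts). Those that fell were Pcgf1, by 1.12, and Usp7, by 0.56 on the log2 scale.

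Lysine methyltransferases and demethylases outside the naming rule were counted in the same way. Of 15 further methyltransferases, Ezh1 and Ezh2 among them, 0 rose and 1 fell in edgeR (6.67%, against 14.4% of all genes). That gene was Smyd3, from 32.9 ± 0.819 to 23.0 ± 0.456 CPM (n = 3 each). Of 9 further demethylases and Jumonji proteins 1 rose (11.1%, against 17.2% of all genes), Jmjd8 (log2 0.68, and -0.45 with total counts), and 2 fell (22.2%, against 14.4%), Riox2 by 0.61 and Jmjd6 by 0.55 on the log2 scale. Of 23 genes listed as readers of methylated lysine 0 rose, against 17.2% of all genes, and 5 fell (21.7%, against 14.4%). Among the 5 was Trim28, a corepressor that recruits H3K9 methylation and is not itself a reader of methylated lysine. Trim28 fell by 0.50 on the log2 scale (SE 0.08, adjusted p = 0.00108 in edgeR), from 79.5 ± 5.59 to 56.3 ± 2.37 CPM.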

How the data were processed

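The authors deposited 1 table with raw counts per gene and library and, per the file headers, the columns of their own DESeq2 comparison: a log2 fold change with its error, a p-value, a mean signal and a test score. Per the submitters' processing notes the build was mm10 and the tools included DESeq2 1.32.0, featureCounts 2.0.1, HISAT2 2.2.1 and fastp 0.22.0. The authors also deposited values scaled by length, whose unit no header names. They were taken as FPKM, since for 771 single-transcript genes 98.4 to 98.8% of values per library lay within 1% of a constant multiple of FPKM from the deposited counts.

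Counts were tested with edgeR 4.0.16 in R 4.3.3: filterByExpr, TMM, quasi-likelihood test, two-sided, group as the only term, Benjamini-Hochberg over 15474 genes, called at adjusted p under 0.05. The procedure was tested on simulated data in which few genes changed, in random directions, so that test does not bear on the choice of scaling. The standard error is the log2 fold change over the square root of F. Exon lengths come from GENCODE vM21 on GRCm38 and GC content from the longest transcript, with the trend fitted by mgcv 1.9.3. Alternatives used DESeq2 1.42.0. Libraries were not treated as paired. Called members with non-overlapping groups and the sex-linked members were named by rule, with up to 3 partners of lowest p per list. Bptf was named beyond that rule. Members and lists were chosen with earlier results of these data known, and members beyond that rule were named after their values were seen. The depth limits the least abundant members.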

Additional observations from a re-analysis of the deposited data

How the results depend on the processing

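With total counts 655 genes were called higher and 10937 lower, and of the members 0 writers higher, 23 writers lower and 14 erasers lower, at medians of -1.32 for writers and -1.01 for erasers. Under that scaling Kmt5c turned to -0.38, Kdm5c to -0.86 and Kdm6a to -0.78, and Nsd3 was called at -1.95. With the length and GC correction 1339 genes were called lower, 4 writers and 6 erasers higher and 1 writer lower, at medians of 0.037 and 0.40. That correction also ended the call of Kmt2e (-0.11, adjusted p = 0.234).

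Leaving out 1 library at a time gave 1356 to 2142 genes lower, with 1356 without wild-type replicate 2 and 1419 without wild-type replicate 3. The erasers called lower numbered 0 to 1, the 1 being Kdm5b without knockout replicate 3. The writers' median ran from -0.22 to -0.11 and the erasers' from 0.063 to 0.20. Kmt2d was called lower in all 13 alternatives, and Kmt5c was called higher in the 12 other than total counts. The log2 difference in the writer to eraser ratio, -0.36, ran from -0.38 to -0.35 over its 11 alternatives. A ratio inside a library cannot move with DESeq2's size factors, with total counts or without the filter, so these alternatives could not change it. With the replicate number as a block 2467 genes were called higher and 1906 lower, and Kmt2a lost its call at -0.35. Deviations of same-numbered libraries from their group means correlated at 0.041, -0.0051 and 0.0477, not every library correlated best with its own number, and the numbers were not taken as pairs. Of the 10 members highest per length in wild type, 8 were also among the 10 highest by deposited FPKM. Replacing the filter or the size factors changed no other count of members by over 1.5 times.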
